A study of Homo sapiens with 12 samples.

Results

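Glycolysis and hypoxia-inducible genes were followed as a group of 39 genes in L-540 cells treated with givinostat, sorafenib or both drugs. The members are the array probes whose platform gene symbol is 1 of 39 listed symbols, a list of known pathway members and targets. The rule itself uses no measured value, but members and lists were chosen with earlier results of these data known. Counts of members are therefore descriptions and no independent support. The 39 members comprise 21 glycolytic enzymes, regulators of glycolysis and carriers of glucose or lactate, and 18 other genes. These 18 are targets of hypoxia-inducible factor (HIF) together with HIF1A itself. In all, 38 members had at least 1 probe, 67 probes together, and 31 members (19 glycolytic and 12 others) were detected well enough to be tested, among 8079 genes tested on the arrays.

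L-540 is an established Hodgkin lymphoma cell line, and its total RNA was hybridised to 12 Illumina bead arrays. The 4 groups had 3 arrays each: cells left untreated (control), cells given givinostat at 100 nM, cells given sorafenib at 5 µM, and cells given the 2 agents together at the same concentrations, called the combination. All cells were cultured for 24 hours after the drugs were given, in an atmosphere of air with CO2 per the labels, so the study had no low-oxygen group. Givinostat inhibits histone deacetylases and sorafenib inhibits several kinases. The labels letter the arrays of a group A, B and C without saying whether they came from separate cultures, so p-values measure only the spread between these arrays, which may be technical.

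Glycolysis splits glucose into pyruvate with a small gain of ATP, and lactate dehydrogenase turns pyruvate into lactate so that the pathway can go on. HIF is a dimer of an oxygen-labile alpha subunit, such as HIF1A, and a stable beta subunit, and it binds short DNA sites with the core ACGTG or GCGTG near its target genes. In normal oxygen the prolyl hydroxylases of the EGLN family mark the alpha subunit for degradation. Glucose carriers and most glycolytic enzymes are textbook HIF targets, and so are genes for mitophagy, glycogen synthesis and the oxygen sensors themselves. HIF1A is regulated mainly at the level of its protein, which these arrays do not measure.

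Median raw intensity was 418.1 to 579.3 on 11 arrays and 681.1 on combination B, on which 22.4% of the probes were detected against 24.6% to 30.9% on the others. Of 12 marker genes of Hodgkin lymphoma cells, 7 were detected on all 12 arrays, among them TNFRSF8 (CD30), whereas CCL22 was detected on none. Of 8 T-cell markers CD2 and CD4 were detected on all 12 arrays and CD3D, CD3G and CD5 on none; of 7 B-cell markers only BLK, and of 6 myeloid markers only CSF1R, was detected on all 12, with CD68 on 11 and LYZ on none. All 5 epithelial markers were undetected on all 12 arrays, and no fibroblast or endothelial marker was detected well enough to be tested. Values are log2 normalized intensities, and a difference between groups is a log2 change ± standard error (SE) with n = 3 arrays per group. A gene fell or rose where limma's p-value, adjusted over the 8079 genes, was under 0.05. The letters were not part of that fit, so its tests are unpaired. In RNA from whole cultures, less RNA per cell and fewer cells that make it cannot be told apart.

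Many of the measured members were lower with sorafenib alone. Compared with control, 14 of the 31 fell, none rose and 17 did not pass the test; over all genes 1.44% fell and 1.94% rose. The falls covered 10 of 19 glycolytic members and 4 of 12 others. The median log2 change was -0.70 for the glycolytic members and -0.53 for the others, against 0.00 for all genes. The difference was negative in 29 of the 31 members, including all 19 glycolytic ones, whereas 50% of all genes were negative. In 20 members every sorafenib array lay below every control array, which was the case for 12.3% of all genes. The largest fall was that of HK2, by 1.66 ± 0.21 (3.16-fold lower, adjusted p = 0.00377).

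**Figure D1:**
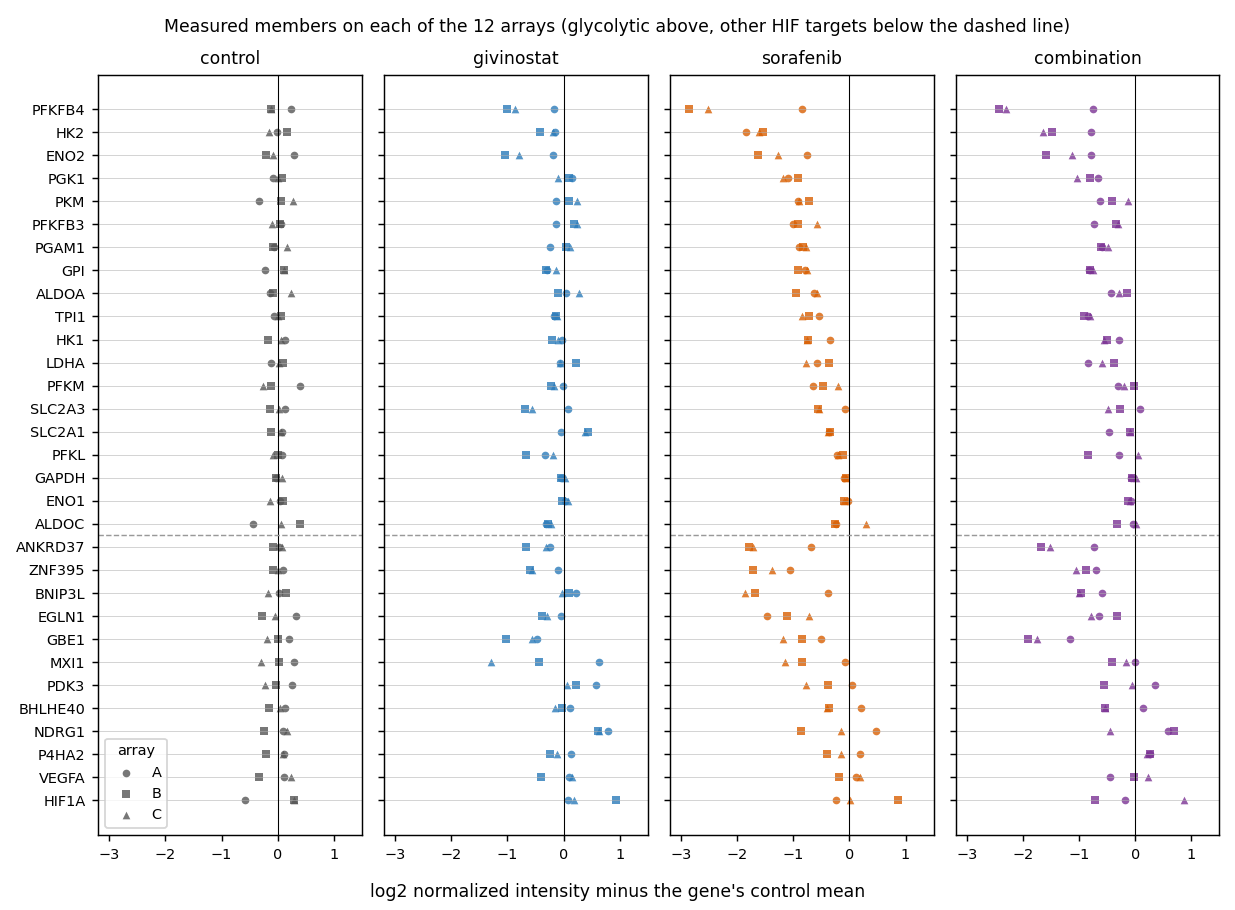
Each point is 1 array (A, B or C), and the horizontal axis gives the log2 normalized intensity minus the mean of the same gene's 3 control arrays, in 1 panel per group. The 31 measured members are ordered within each class by their change with sorafenib. Most points of the sorafenib panel lie left of 0, with PFKFB4 and HK2 farthest among the glycolytic members, and letter A lies right of B and C for PFKFB4, ANKRD37 and BNIP3L.

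At the entry of glycolysis, glucose is taken up by the carriers SLC2A1 and SLC2A3 and phosphorylated by a hexokinase. HK2, the inducible hexokinase, had log2 levels of 9.28, 9.47 and 9.15 on the control arrays and 7.46, 7.76 and 7.70 on the sorafenib arrays. All 3 sorafenib arrays lay more than 1 log2 unit below the lowest control array. The constitutive hexokinase HK1 had levels of 14.26, 13.96 and 14.19 in control and 13.80, 13.40 and 13.39 with sorafenib, a fall by 0.61 ± 0.15 (adjusted p = 0.0498). SLC2A1 stood at -0.36 ± 0.16 (adjusted p = 0.228), with every sorafenib array below every control array. SLC2A3 stood at -0.39 ± 0.22 (adjusted p = 0.368), with overlapping groups. Neither carrier passed the test, and the lactate exporter SLC16A3 had no probe under that symbol.

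The middle of the pathway is governed by phosphofructokinase and by the PFKFB enzymes, which make and break its activator, a fructose bisphosphate. PFKFB4 had the largest difference of all members but also the widest spread, with levels of 13.62, 13.26 and 13.27 in control and 12.54, 10.53 and 10.87 with sorafenib. Every sorafenib array was below every control array, but array A was far less so than B and C. The change of -2.07 ± 0.53 did not pass the test (adjusted p = 0.0609), although it did with the letters as a replicate block (adjusted p = 0.00711, and 0.0153 without the combination arrays). PFKFB3, its relative with the strongest activity towards making the activator, fell by 0.83 ± 0.16 (adjusted p = 0.028). The phosphofructokinase subunits did not pass, PFKL at -0.18 ± 0.21 and PFKM at -0.44 ± 0.18. The isomerase GPI, which hands them their substrate, fell by 0.82 ± 0.13 (adjusted p = 0.00812).

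Aldolase splits the product of phosphofructokinase, a different fructose bisphosphate from the activator named above. Its main isoform ALDOA fell by 0.71 ± 0.16 (adjusted p = 0.0405), while ALDOC stood at -0.06 ± 0.21. The isomerase TPI1, which interconverts the products, fell by 0.70 ± 0.11 (adjusted p = 0.00989), from 15.21, 15.35 and 15.30 to 14.75, 14.57 and 14.43. PGK1, the kinase of the first step that yields ATP, had levels of 13.37, 13.54 and 13.47 in control and 12.36, 12.54 and 12.27 with sorafenib, a fall by 1.07 ± 0.14 (2.09-fold, adjusted p = 0.00416). For both genes the sorafenib arrays were tightly grouped and separate from the control arrays. The mutase PGAM1 fell by 0.83 ± 0.13 (adjusted p = 0.00817), but its near-identical copy PGAM4 (-0.86 ± 0.15, adjusted p = 0.0181) may share signal with its probes, so the 2 cannot be counted as separate genes.

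Of the enolases, ENO2 had levels of 12.34, 11.85 and 11.98 in control and 11.31, 10.42 and 10.79 with sorafenib, a fall by 1.22 ± 0.29 (2.32-fold, adjusted p = 0.049). The pyruvate kinase gene PKM fell by 0.84 ± 0.18 (adjusted p = 0.0374). LDHA, the lactate dehydrogenase subunit that favours lactate formation, went from 15.11, 15.33 and 15.27 to 14.66, 14.87 and 14.46, with no overlap. Its change of -0.57 ± 0.16 did not pass (adjusted p = 0.0792), but passed with the letters as a replicate block (adjusted p = 0.0213, and 0.0339 without the combination arrays).

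GAPDH and ENO1, the enzymes of the intervening steps, stood near 0. GAPDH had levels of 15.92, 15.93 and 16.03 in control and 15.86, 15.90 and 15.89 with sorafenib (-0.08 ± 0.10, adjusted p = 0.733, 95% interval -0.30 to 0.14). ENO1 stood at -0.07 ± 0.11 (adjusted p = 0.784, 95% interval -0.30 to 0.17). Their tested probes were among the brightest on the arrays, at a mean of 0.16 and 0.26 log2 units below the brightest probe, a range in which differences can be compressed; its part in the result was not tested. The 2 dimmer GAPDH probes stood at -0.19 ± 0.12 and -0.28 ± 0.12 and did not pass either.

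**Figure D2:**
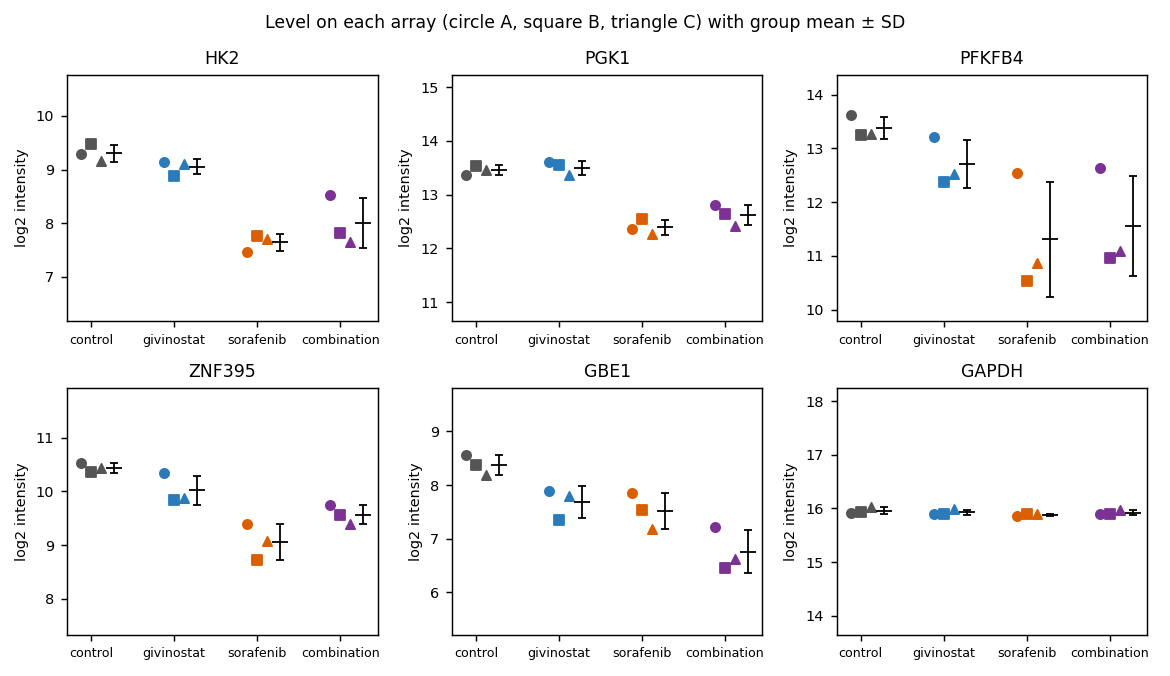
Log2 normalized intensity of 6 members on every array (circle A, square B, triangle C), with the mean ± SD of each group of 3 in black beside the points; all panels span the same number of log2 units. HK2 and PGK1 are lower on all sorafenib and combination arrays than on all control arrays, PFKFB4 is widely spread with letter A on top in all 4 groups, GBE1 is lowest in the combination, where it was detected on 1 of 3 arrays, and GAPDH is level.

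Among the other HIF targets, 4 fell with sorafenib. ANKRD37, an ankyrin-repeat protein gene, had levels of 13.03, 12.93 and 13.09 in control and 12.33, 11.22 and 11.31 with sorafenib, a fall by 1.40 ± 0.30 (2.64-fold, adjusted p = 0.0374). ZNF395, a zinc-finger transcription factor gene, went from 10.53, 10.35 and 10.44 to 9.39, 8.73 and 9.07, a fall by 1.38 ± 0.19 (2.60-fold, adjusted p = 0.00488). BNIP3L, a receptor for the removal of mitochondria by autophagy, went from 10.66, 10.79 and 10.46 to 10.25, 8.96 and 8.77, a fall by 1.31 ± 0.31 (adjusted p = 0.049). In ANKRD37 and BNIP3L sorafenib array A stayed nearer to control than B and C. EGLN1, the main HIF prolyl hydroxylase, fell by 1.10 ± 0.22 (adjusted p = 0.028). It was detected on 2 of the 3 sorafenib arrays, and with the undetected array at its detection limit the fold was 2.13.

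GBE1, the glycogen branching enzyme, went from 8.56, 8.37 and 8.18 to 7.86, 7.53 and 7.18 with sorafenib, with no overlap. The change of -0.85 ± 0.24 did not pass (adjusted p = 0.0797), but did with the letters as a replicate block (adjusted p = 0.0205, and 0.0313 without the combination arrays). The remaining 7 members of this class had changes between -0.69 and 0.22 that did not pass. MXI1, which encodes an antagonist of MYC, stood at -0.69 ± 0.42 and was detected on 2 of the 3 sorafenib arrays. PDK3, a kinase that switches off pyruvate dehydrogenase, stood at -0.37 ± 0.26. BHLHE40, a transcriptional repressor gene, stood at -0.19 ± 0.21, the stress-responsive gene NDRG1 at -0.17 ± 0.34 and P4HA2, a collagen prolyl hydroxylase subunit, at -0.12 ± 0.17. The angiogenic factor gene VEGFA stood at 0.04 ± 0.22, with levels of 8.94, 8.50 and 9.06 in control and 8.95, 8.64 and 9.02 with sorafenib. HIF1A itself stood at 0.22 ± 0.43, with levels of 6.72, 7.61 and 7.60 in control and 7.08, 8.18 and 7.32 with sorafenib, and 1 control array was below detection. The control and sorafenib arrays overlapped for both genes.

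The 7 members that had a probe but were not tested were undetected on nearly all arrays. BNIP3 (mitophagy), EGLN3 (a HIF prolyl hydroxylase) and ADM (the peptide hormone adrenomedullin) were detected on 0 of 12 arrays. The phosphofructokinase subunit gene PFKP and the histone demethylase gene KDM3A were detected on 1, PDK1, a pyruvate dehydrogenase kinase gene, on 2, and P4HA1, a collagen prolyl hydroxylase subunit gene, on at most 3. No change was measurable for these members.

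The count of 14 falls depended on the arrays and settings used, although all 14 differences were negative in every setting in which the gene was tested. The calls of HK2, GPI, PGK1, PGAM1 and ZNF395 held when any 1 of the 12 arrays was left out, that of TPI1 was lost without sorafenib C (adjusted p = 0.0503), and the other 8 were lost without at least 4 different arrays. The count was 6 without control C or sorafenib B, 7 without control A, control B or sorafenib C, 8 without givinostat B, 9 without givinostat C or combination C, and 10 to 13 without the others. It was 4 with only the control and sorafenib arrays in the fit, 5 with no detection filter and 2 with each array scaled to its median. With the letters as a replicate block it was 17, where 706 of all genes passed. Over all genes 273 of 8079 passed in either direction in the fit of all 12 arrays. Leaving out 1 array gave 67 of 8216 (sorafenib C) to 247 of 8208 (combination A). With the control and sorafenib arrays alone 74 of 7803 passed, with no detection filter 65 of 18852 and with median scaling 24 of 8079.

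Further probes of the same genes gave changes of the same sign with sorafenib. PGK1's second probe stood at -1.25 ± 0.31, that of PGAM1 at -0.92 ± 0.12, that of TPI1 at -0.83 ± 0.18 and that of ALDOA at -0.72 ± 0.13. The 2 further PKM probes stood at -0.77 ± 0.19 and -0.79 ± 0.28, and that of PFKFB3 at -0.66 ± 0.19. When every probe was fitted on its own, those of PGAM1, TPI1 and ALDOA passed (adjusted p = 0.00548, 0.0424 and 0.02). Those of PGK1 (0.0583), PKM (0.0607 and 0.153) and PFKFB3 (0.0894) did not. In that fit the tested probes of HK1 (0.0586), ENO2 (0.0559) and BNIP3L (0.0559) did not pass either. HK2's dimmer probe stood at -0.96 ± 0.41 and was detected on all 3 control arrays and on none of the sorafenib arrays. It was kept only through control, so the filter favoured a lower sorafenib value and the probe adds no support. PDK3's dimmer probe stood at -0.79 ± 0.21 (adjusted p = 0.0705 when every probe was fitted on its own), a larger difference than the -0.37 of the tested one. MXI1's stood at -0.76 ± 0.35 and that of HK1 at -0.53 ± 0.27, each detected on 1 of the 3 sorafenib arrays. MXI1's was kept only through control and HK1's only through control and givinostat, so the same limit holds for them. The exception in sign was P4HA2, whose 2 other probes stood at 0.07 ± 0.16 and 0.05 ± 0.20, none of the 3 passing.

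The start-site regions of these genes are shown because many members moved together and HIF's core site is short enough to be found by eye. For 34 of the 39 members RefSeq (build GRCh38.p14) gave at least 1 promoter, 64 in all, and the 250 bases before each start were searched on both strands for ACGTG and GCGTG. The former reads CACGT on the other strand, and a CACGTG contains it on either strand, so these counts overlap. At least 1 ACGTG lay in the window of 22 of the 34 members (64.7%), against 21.7% of 27305 genes, and GCGTG in 19 of 34 (55.9%) against 36.2%. Per promoter the shares for ACGTG were 39.1% of 64 and 18.5% of 35116, and those for GCGTG were 35.9% and 32.2%. The members had more promoters per gene than all genes have, which raises their share counted per gene. CACGTG lay in windows of 9 of 34 members (26.5%) against 7.73% of genes, and in 14.1% of the members' promoters against 6.34%. Many members are on the list because they are known HIF targets. ACGTG was found in 9 of the 12 members with a promoter that fell with sorafenib and in 8 of the 14 that were tested and did not pass, so it lay in both groups. A match is a run of letters, not a measured binding site.

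The windows printed were chosen for holding ACGTG: those of the 9 members that fell with sorafenib and hold it, of LDHA and GBE1, which fell with the combination, and of GAPDH, which did not pass, for comparison. HK1, PGAM1 and PKM fell and have promoters without ACGTG, and PFKFB4 holds GCGTG only; they are not shown. Sequences run 5′ to 3′ on the strand of the gene, with only ACGTG and its other-strand reading CACGT in capitals. GCGTG is left in lower case, as in the printed windows of PGK1 and of the first start of HK2. PGK1 (chrX:78104026-78104089, plus strand) and ANKRD37 (chr4:185396659-185396722, plus strand) have several copies within a short stretch, as has LDHA below. HK2 has several copies before each of 2 starts, and the copy nearest each start is printed (chr2:74834059-74834103 and chr2:74835001-74835046, plus strand). The others are TPI1 (chr12:6868068-6868104, plus), ENO2 (chr12:6914442-6914486, plus), PFKFB3 (chr10:6202804-6202849, plus), ALDOA (chr16:30064365-30064410, plus, 1 of its 3 windows), GPI (chr19:34364810-34364854, plus), LDHA (chr11:18394456-18394514, plus), EGLN1 (chr1:231422288-231422320, minus), GBE1 (chr3:81761733-81761777, minus) and GAPDH (chr12:6535163-6535208, plus).
PGK1: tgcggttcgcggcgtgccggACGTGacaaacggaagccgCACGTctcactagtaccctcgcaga
ANKRD37: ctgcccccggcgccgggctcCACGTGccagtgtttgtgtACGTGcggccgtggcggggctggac
HK2, first start: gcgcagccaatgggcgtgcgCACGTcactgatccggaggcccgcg
HK2, second start: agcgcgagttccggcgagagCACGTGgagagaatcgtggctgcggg
TPI1: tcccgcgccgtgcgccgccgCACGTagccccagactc
ENO2: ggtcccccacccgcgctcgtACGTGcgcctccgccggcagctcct
PFKFB3: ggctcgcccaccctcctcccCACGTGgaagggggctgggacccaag
ALDOA: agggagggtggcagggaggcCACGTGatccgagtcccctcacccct
GPI: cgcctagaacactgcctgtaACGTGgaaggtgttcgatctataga
LDHA: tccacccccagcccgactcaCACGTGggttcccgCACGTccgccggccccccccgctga
EGLN1: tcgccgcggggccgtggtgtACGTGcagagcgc
GBE1: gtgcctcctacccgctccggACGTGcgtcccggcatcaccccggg
GAPDH: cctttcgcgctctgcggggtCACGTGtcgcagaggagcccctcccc

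With givinostat alone most members differed less from control than with sorafenib, and none passed the test. By limma, 0 of the 31 passed against control, where 0.0866% of all genes did, and 3 members were lower at an unadjusted p under 0.05, where 5.57% of all genes were. The median log2 change was -0.11 for the glycolytic members and -0.07 for the others, against 0.00 for all genes. Without regard to sign, the median change was 0.13 for the glycolytic members and 0.33 for the others, against 0.18 for all genes. Every givinostat array lay below every control array in 7 members, against 8.96% of all genes, and above in 1, against 10.5%. The 3 lower members were GBE1 (-0.69 ± 0.24, adjusted p = 0.241), ENO2 (-0.67 ± 0.29, adjusted p = 0.363) and ZNF395 (-0.42 ± 0.19, adjusted p = 0.382). ENO2 had givinostat levels of 11.88, 11.01 and 11.27 and passed with the letters as a replicate block (adjusted p = 0.0255, and 0.0467 without the combination arrays). GBE1 had levels of 7.89, 7.34 and 7.80, all below the control arrays. NDRG1 was the only member with every givinostat array above every control array, at 8.79, 8.63 and 8.65 against 8.10, 7.77 and 8.16 (0.68 ± 0.34, adjusted p = 0.441). PFKFB4 stood at -0.68 ± 0.53 and HK2 at -0.26 ± 0.21, neither passing, with every givinostat array below every control array in both. Among the carriers SLC2A1 stood at 0.26 ± 0.16 and SLC2A3 at -0.39 ± 0.22.

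With both drugs, 10 of the 31 members fell against control and none rose, while 2.97% of all genes fell. The falls covered 7 of 19 glycolytic members and 3 of 12 others, and the medians were -0.45 and -0.25 against -0.02 for all genes. In 16 members every combination array lay below every control array, against 14.2% of all genes. GBE1 fell by 1.61 ± 0.24 (adjusted p = 0.00454), to levels of 7.21, 6.46 and 6.61. It was detected on 1 of the 3 combination arrays, and with the undetected ones at their detection limit the fold was 2.48, no larger than that of ANKRD37. HK2 fell by 1.30 ± 0.21 (2.46-fold, adjusted p = 0.00659), to 8.52, 7.82 and 7.66. ANKRD37 fell by 1.31 ± 0.30 (2.48-fold, adjusted p = 0.0289), to 12.29, 11.34 and 11.49. Both of these genes had their highest combination level on array A.

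The further falls with the combination were in ENO2 (1.17 ± 0.29 lower, adjusted p = 0.0383), TPI1 (0.85 ± 0.11 lower, adjusted p = 0.003) and PGK1 (0.84 ± 0.14 lower, adjusted p = 0.00684). GPI (0.79 ± 0.13 lower, adjusted p = 0.00659) and PGAM1 (0.57 ± 0.13 lower, adjusted p = 0.0268) fell too, as did LDHA (0.60 ± 0.16 lower, adjusted p = 0.0482) and ZNF395 (0.87 ± 0.19 lower, adjusted p = 0.0238). PFKFB4 stood at -1.82 ± 0.53 (adjusted p = 0.0646), with 12.64 on array A and 10.95 and 11.08 on B and C. HK1, PFKFB3, ALDOA, PKM, BNIP3L and EGLN1, which fell with sorafenib alone, had combination changes from -0.28 for ALDOA to -0.85 for BNIP3L that did not pass; this comparison and the one of sorafenib with control share the control arrays. ALDOA's second probe stood at -0.70 ± 0.13 (adjusted p = 0.0135 when every probe was fitted on its own), so the 2 probes differ on this call. The calls of HK2, GBE1, GPI, TPI1 and PGK1 held without any 1 array, whereas that of LDHA was lost without each of the 12 in turn. The count was 5 without control B, control C, combination B or combination C, 6 without control A and 8 to 11 without the others. It was also 5 with each array scaled to its median and with no detection filter. Over all genes 565 of 8079 passed in either direction. Leaving out 1 array gave 195 of 8220 (control B) to 529 of 8217 (givinostat A). With median scaling 96 of 8079 passed and with no detection filter 177 of 18852.

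The effect of sorafenib in cells that also received givinostat was read from combination against givinostat, which shares no array with sorafenib against control. By limma 3 members fell and 0 rose, where 0.73% of all genes fell and 0.953% rose. PGK1 fell by 0.88 ± 0.14 (1.84-fold, adjusted p = 0.0136), from 13.60, 13.55 and 13.36 with givinostat to 12.80, 12.65 and 12.43 with both drugs. TPI1 fell by 0.72 ± 0.11 (1.64-fold, adjusted p = 0.0137), from 15.12, 15.15 and 15.18 to 14.44, 14.38 and 14.48. HK2 fell by 1.05 ± 0.21 (2.06-fold, adjusted p = 0.033), from 9.15, 8.89 and 9.11 to 8.52, 7.82 and 7.66. In each of these genes the groups did not overlap, as in 15 members in all against 12.4% of all genes. All 3 were also among the 14 that fell with sorafenib alone, that is 100% of the shorter list and 21.4% of the longer. Both comparisons take each gene's spread from the same fit of 12 arrays, so their calls are not independent. No overlap among all genes stands beside this one, so it is a description only.

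Of the 31 differences between combination and givinostat, 26 were negative, where 52.8% of all genes were. The medians were -0.47 for the glycolytic members and -0.39 for the others against -0.02 for all genes. GPI (-0.54 ± 0.13, adjusted p = 0.0565), PGAM1 (-0.54 ± 0.13, adjusted p = 0.0589) and LDHA (-0.63 ± 0.16, adjusted p = 0.0713) were nearest to the threshold without passing. GBE1 stood at -0.92 ± 0.24 (adjusted p = 0.0767), BNIP3L at -0.95 ± 0.31 and ANKRD37 at -0.90 ± 0.30. P4HA2 lay the other way, at 0.32 ± 0.17 (adjusted p = 0.312), with every combination array above every givinostat array. Its dimmest probe stood at 0.82 ± 0.16 (adjusted p = 0.034 when every probe was fitted on its own) and the remaining probe at 0.46 ± 0.20. The count of 3 was 0 without givinostat B and with only these 2 groups in the fit, 1 without combination B or combination C, 2 without givinostat A, givinostat C, sorafenib B or sorafenib C, and 3 or 4 without the others. Other settings gave from 1 (no detection filter) to 8 (no background correction, or the deposited matrix), and 11 with the letters as a replicate block, although the letters did not pair the combination arrays with the others. Over all genes 136 of 8079 passed in either direction. Leaving out 1 array gave 14 of 8193 (givinostat B) to 136 of 8192 (control A), and these 2 groups alone gave 24 of 7633. With no detection filter 33 of 18852 passed, without background correction or in the deposited matrix 364 of 8079, and with the block 590.

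**Figure D3:**
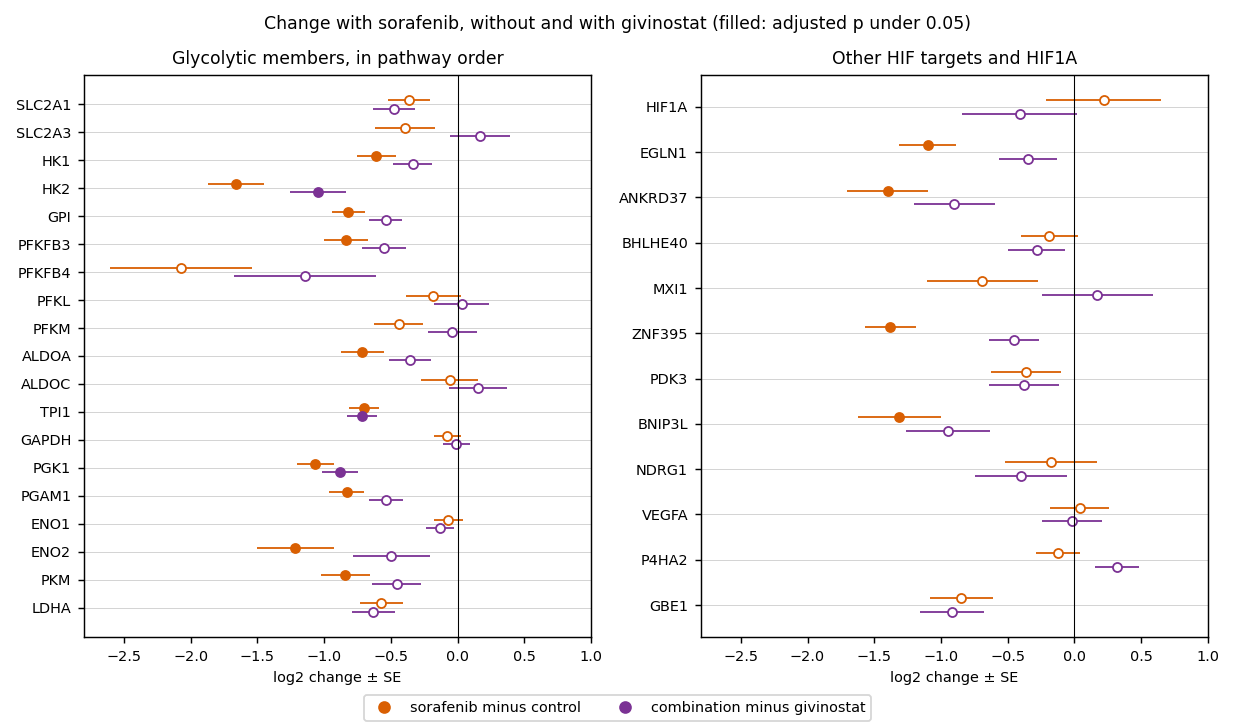
Log2 change ± SE with sorafenib in cells without givinostat (orange, sorafenib minus control) and with givinostat (purple, combination minus givinostat), n = 3 arrays per group, with filled symbols for an adjusted p under 0.05. Glycolytic members run from glucose uptake at the top to lactate formation at the bottom. HK2, TPI1 and PGK1 are filled in both, while GAPDH, ENO1, ALDOC and VEGFA lie near 0 in both.

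Between combination and sorafenib no member passed the test: by limma 0 of 31 were called, where 0.359% of all genes did, and at an unadjusted p under 0.05 there were 6 higher and 1 lower, where 7.29% of all genes were higher and 8.29% lower. The 6 higher were ZNF395 (0.51 ± 0.19), EGLN1 (0.51 ± 0.22), PKM (0.45 ± 0.18), ALDOA (0.43 ± 0.16), PFKFB3 (0.37 ± 0.16) and P4HA2 (0.37 ± 0.17), and the lower one was GBE1 (-0.76 ± 0.24), with adjusted p-values from 0.175 for GBE1 to 0.318 for P4HA2. The class medians were 0.16 for the glycolytic members and 0.32 for the others, and both turned negative (-0.10 and -0.01) when each array was scaled to its median. With that scaling the median of all genes stood at -0.32 in this comparison (-0.02 with quantile normalization), and relative to it the glycolytic median was 0.22.

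The interaction asks whether the combination differs from the sum of the single-drug changes on the log2 scale. By limma it passed in 0 of 31 members and in 0% of all genes, and 2 members were positive at an unadjusted p under 0.05, where 2.24% of all genes were. For ZNF395 the single changes of -0.42 and -1.38 sum to -1.80 and the combination gave -0.87, an interaction of 0.93 (95% interval 0.34 to 1.51, adjusted p = 0.758). EGLN1 had single changes of -0.24 and -1.10 and a combination change of -0.59, an interaction of 0.75 (95% interval 0.08 to 1.43, adjusted p = 0.822). HK2's sum was -1.92 and its combination change -1.30, an interaction of 0.61 (95% interval -0.03 to 1.26, adjusted p = 0.822). In these 3 genes the combination lay above the sum, but none passed the adjustment.

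GBE1 had single changes of -0.69 and -0.85, which sum to -1.54, and a combination change of -1.61, an interaction of -0.07 (95% interval -0.81 to 0.67); 2 of its 3 combination arrays were below detection, so this value is uncertain. TPI1 had a sum of -0.84 and a combination change of -0.85 (interval of the interaction -0.37 to 0.34). PGK1 had -1.02 and -0.84 (interval -0.24 to 0.61). These intervals bound the interaction but do not show that it is 0. PFKFB4, whose arrays spread most, had an interaction of 0.92 with an interval of -0.73 to 2.58. The interaction was positive in 21 of 31 members and negative in 10, where 52.9% of all genes were negative. Its median was 0.28 for the glycolytic members and 0.18 for the others against -0.02 for all genes. Both class medians turned negative (-0.07 and -0.17) with median scaling, under which the median of all genes stood at -0.42.

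**Figure D4:**
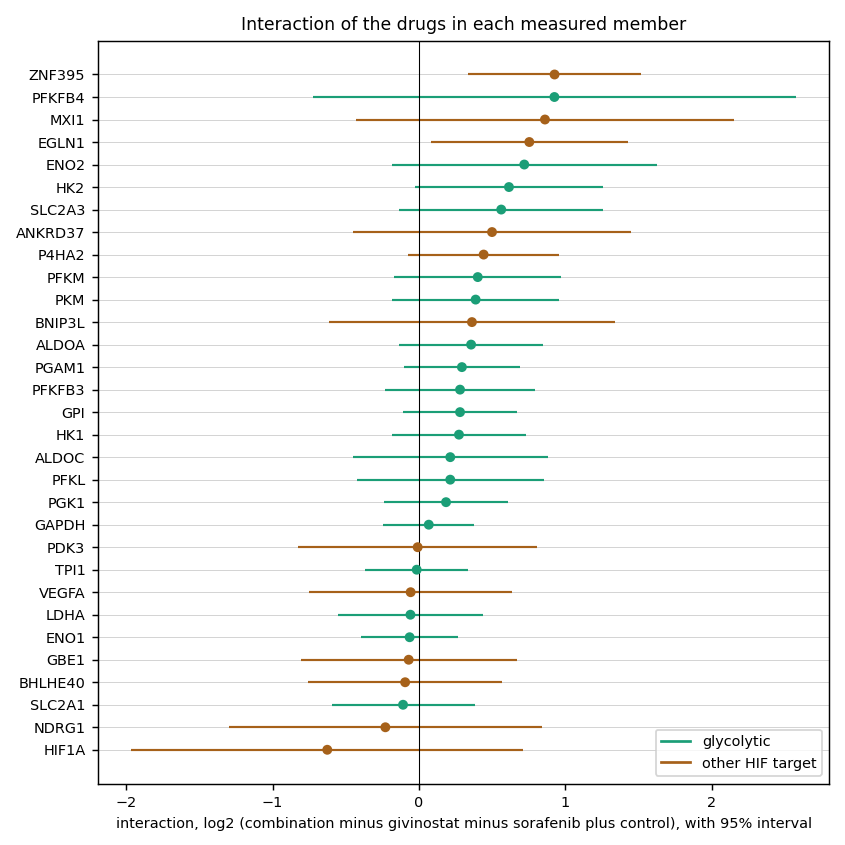
Interaction of the drugs in each of the 31 measured members, as the log2 combination change minus the sum of both single-drug changes, with its 95% interval; green lines are glycolytic members and brown lines other HIF targets. Only the intervals of ZNF395 and EGLN1 lie wholly above 0, and no member passed after adjustment over all genes.

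The letters of the arrays recurred in the values. Same-letter arrays of control, givinostat and sorafenib deviated together across genes (correlations of 0.18 to 0.41 in 9 pairs; genes are not independent replicates). Of the 12 other HIF targets, letter A gave the highest of the 3 values in 7 with control, 10 with givinostat, 9 with sorafenib and 8 with the combination, whereas over all genes A was highest in 35.1% to 36.1%. Among the 19 glycolytic members A was highest in 6 to 8. The cause was not tested. Taken within letters, the median sorafenib change of all 31 members was -0.47 in A, -0.75 in B and -0.80 in C. The medians of all genes were 0.02, -0.0009 and -0.0002. In A 25 members were lower than control, in B 29 and in C 28, where 48.3%, 50.1% and 50% of all genes were. The members' median was thus negative in each letter, and smallest in size in A. PFKFB4 shows the pattern plainly, with A on top in every group.

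Other genes of the same pathways were taken from lists of non-members, which were also chosen with earlier results of these data known. For 18 tested genes of glycolysis, gluconeogenesis and glycogen metabolism outside the member list, the median with sorafenib was 0.02, against 0.00 for all genes. By the test 3 fell and none rose, where 1.44% of all genes fell and 1.94% rose. They were GYS1, the glycogen synthase of muscle and other tissues (-0.97 ± 0.21, adjusted p = 0.0374), PGAM4 and the phosphoglucomutase gene PGM1 (-0.44 ± 0.11, adjusted p = 0.0498). As said above, PGAM4 cannot be counted apart from PGAM1. GYS1 also fell with the combination (-0.86 ± 0.21, adjusted p = 0.0358). The glycogen phosphorylase gene PYGB rose when sorafenib was added to givinostat (0.93 ± 0.19, adjusted p = 0.0398), from 10.20, 9.87 and 9.97 to 10.55, 11.08 and 11.20; it stood at 0.72 ± 0.19 with sorafenib alone (adjusted p = 0.0703). Thus GYS1 was lower with sorafenib alone and PYGB higher with sorafenib on top of givinostat. PYGL, another tested phosphorylase gene, did not pass in either comparison and is given for contrast. Its levels were 8.36, 8.10 and 8.65 in control and 7.94, 7.86 and 7.46 with sorafenib. PYGL's levels were 8.33, 8.52 and 8.33 with givinostat and 7.90, 7.21 and 8.31 with both drugs. A difference between PYGB and PYGL was not tested.

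Of 23 tested hypoxia-inducible genes outside the member list, 21 were negative with sorafenib, where 50% of all genes were. Their median was -0.46, against 0.00 for all genes. By the test 3 fell and none rose, where 1.44% of all genes fell and 1.94% rose. They were NARF, which encodes a protein that binds prelamin A (-1.07 ± 0.18, adjusted p = 0.0135), INSIG2, which holds back the sterol sensor SCAP (-1.01 ± 0.24, adjusted p = 0.0463), and the collagen lysyl hydroxylase gene PLOD2 (-0.64 ± 0.15, adjusted p = 0.0444). NARF fell with the combination as well (-1.10 ± 0.18, adjusted p = 0.00751), together with BCKDHA, a subunit of branched-chain keto acid dehydrogenase (-0.73 ± 0.20, adjusted p = 0.0489). PLOD2 fell when sorafenib was added to givinostat (-0.67 ± 0.15, adjusted p = 0.048), from 14.21, 14.36 and 14.10 to 13.63, 13.53 and 13.50.

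The branches next to glycolysis showed no change by the test. None of 6 tested genes of pyruvate dehydrogenase and its regulators and none of 6 of the pentose phosphate pathway passed in any of the 6 comparisons with limma. At an unadjusted p under 0.05, sorafenib against control gave 1 lower gene among the former and 1 lower and 1 higher among the latter, where 9.07% of all genes were lower and 10.8% higher. Of 11 tested HIF subunits and parts of the oxygen-sensing machinery, none passed with either drug alone. With the combination 2 fell, where 2.97% of all genes did. They were RBX1, a subunit of the ubiquitin ligase that the VHL protein directs to HIF (-0.94 ± 0.22, adjusted p = 0.0271), and CITED2, which competes with HIF for its co-activators (-0.96 ± 0.26, adjusted p = 0.0489).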

How the data were processed

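Per the labels' protocols, total RNA was extracted with Trizol and labelled as biotinylated cRNA; BeadStudio is the tool in the submitters' processing notes, with no version given. The deposited raw table holds average bead intensity per probe on the linear scale, not normalized between arrays, and a detection fraction that the authors deposited beside it, which rose with intensity on every array and was therefore read as 1 minus the detection p-value. The authors' deposited matrix repeats these probes' intensity after normalization; its arrays share nearly 1 distribution, as quantile normalization gives, but the method is not given in the sources used here.

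From the raw table, limma 3.58.1 (R 4.3.3) computed log2 values with its function neqc, which subtracts background by normexp, adds an offset of 16 and equalises quantiles. A probe was kept if some group had it at detection p under 0.05 on each of its 3 arrays (11801 of 48803); symbols came from the platform annotation, and the brightest probe per gene gave 8079 genes. lmFit and eBayes were fitted across all genes over the 12 arrays (8 residual degrees of freedom), with Benjamini-Hochberg adjustment over all genes and 95% intervals from the same fit; the fit was tested on simulated data. Array number limits the precision. Alternatives were other background corrections, normalizations, filters and probe rules, leaving out each array, the letters as a block and fits of the compared groups alone; every probe fitted on its own, and median-scaled values relative to all genes, were added after seeing the data. Same-letter arrays deviated together (r = 0.177 to 0.408, 9 of 9 pairs over 0.1) among control, givinostat and sorafenib. With the combination 4 of 9 pairs did. The letters were thus taken to pair control, givinostat and sorafenib on the data's evidence, since the labels do not say what a letter means. The main fit and its p-values did not use this pairing. It entered only in the alternatives with the letters as a block. All 39 members are accounted for. From each list of non-members up to 4 genes past the threshold are named per comparison, and PYGL is named besides for contrast. Members and lists were chosen with earlier results of these data known.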

Additional observations from a re-analysis of the deposited data

How the results depend on the processing

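In every setting in which the gene was tested, each of the 14 falls with sorafenib, the 10 with the combination and the 3 of combination against givinostat remained negative, and only the calls differed. Without background correction the count for combination against givinostat was 8, and the glycolytic medians were -0.63 (sorafenib against control), -0.38 (combination against control) and -0.43 (combination against givinostat), with -0.22 for the other HIF targets with sorafenib. The deposited matrix gave 8, -0.64, -0.38, -0.43 and -0.22 for the same quantities. Normexp on the intensities alone gave a count of 6 for combination against givinostat, as did a detection p under 0.01 on all 12 arrays, which also gave -0.28 for the other HIF targets with sorafenib. With no detection filter the counts were 5 (sorafenib), 5 (combination) and 1 (combination against givinostat), with 18852 genes tested. Scaling each array to its median gave counts of 2 (sorafenib) and 5 (combination), glycolytic medians of -0.0305 (givinostat), -0.76 (combination), -0.88 (combination against givinostat), -0.103 (combination against sorafenib) and -0.0709 (interaction), and medians of the other HIF targets of -0.75, -0.0149 and -0.17 in the last 3 of these comparisons. The median of all genes then stood at 0.03 (sorafenib), 0.09 (givinostat), -0.29 (combination), -0.39 (combination against givinostat), -0.32 (combination against sorafenib) and -0.42 (interaction), against -0.02 to 0.00 with quantile normalization, and relative to all genes the glycolytic medians were -0.75 (sorafenib), 0.22 (combination against sorafenib) and 0.35 (interaction). The mean of a gene's probes gave glycolytic medians of -0.49 (combination against control) and 0.21 (interaction).

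Fits of only the compared groups gave 4 (sorafenib) and 0 (combination against givinostat), with fewer arrays to estimate the spread. Over all genes 74 of 7803 and 24 of 7633 passed in these fits. With the letters as a replicate block 17 members fell with sorafenib, 1 with givinostat (ENO2), 12 with the combination and 11 for combination against givinostat; the first 2 counts were the same when the combination arrays were left out of that fit. The letters did not pair the combination: its array B correlated with the other groups' B at -0.14 to -0.11 and with their C at 0.16 to 0.32, and its array C with their C at -0.08 to 0.14 and with their B at 0.23 to 0.29, so the block's counts for the combination rest on letters that the data do not bear out. Apart from the calls given in the report and these counts for comparisons with the combination, the block changed no call among control, givinostat and sorafenib. Leaving out 1 array at a time gave 6 to 13 falls with sorafenib, 5 to 11 with the combination and 0 to 4 for combination against givinostat. Over all genes the calls in either direction were then 67 to 247, 195 to 529 and 14 to 136 in the same order. The glycolytic medians then ranged from -0.75 to -0.60 with sorafenib, -0.12 to -0.0634 with givinostat, -0.54 to -0.40 with the combination, -0.56 to -0.41 for combination against givinostat, 0.0825 to 0.22 for combination against sorafenib and 0.24 to 0.33 for the interaction. Those of the other HIF targets ranged from -0.75 to -0.32, -0.20 to 0.00, -0.42 to -0.15, -0.52 to -0.27, 0.13 to 0.46 and 0.05 to 0.39 in the same order. Cyclic loess and each probe fitted on its own kept every count within 1.5 times. The cause of the other shifts was not tested. Over all genes, the alternatives that keep all 12 arrays gave 24 (median scaling) to 706 (replicate block) calls for sorafenib against 273, 1 (no detection filter) to 166 (replicate block) for givinostat against 7, 96 (median scaling) to 1068 (replicate block) for the combination against 565, 33 (no detection filter) to 590 (replicate block) for combination against givinostat against 136, and 8 (no detection filter) to 175 (replicate block) for combination against sorafenib against 29. A chip block was not run because the file headers name no chip. With 3 arrays per group and dim probes for 7 members, small changes could not be detected.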
